A study of Mus musculus with 8 samples.

Results

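Trpm8, the gene of the cold-sensing TRPM8 channel, and the 3 genes of its channel-associated factors, Tcaf1, Tcaf2 and Tcaf3, were followed in the prostates of 8 NOD mice. These 4 genes were found by their GENCODE M21 symbols among the 54532 genes of the count table. The set was chosen by measured values of this experiment, because Tcaf3 differed between etanercept-treated and control mice, so the difference between the groups is given for these genes as a description. Calls of the tests over all genes are given for them only beside the shares over all genes, not as support. Trpm8 had no count in any mouse, and the 3 Tcaf genes had counts in every mouse and passed the filter on low counts.

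TRPM8 is a cation channel opened by cold and by menthol. It is best known from sensory neurons of the skin, and in the human prostate its expression depends on androgen. The membrane lipid PIP2 holds the channel open, and receptors that signal through Gq proteins and phospholipase C dampen it. TCAF proteins bind TRPM8 and aid its transport to the cell surface, where TCAF1 favours opening of the channel and TCAF2 suppresses it. Tcaf3 is a further gene of the family, and the RefSeq gene table lists Eapa2, for experimental autoimmune prostatitis antigen 2, among its synonyms.

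The control group (n = 4) received PBS vehicle and the other group (n = 4) received etanercept, a soluble TNF receptor that binds the inflammatory cytokine TNF, at 4 mg/kg with 2 injections per week over 5 weeks. All were male mice of the NOD/ShiLtJ strain, in which autoimmune diabetes and inflammation of the prostate arise, and the tissue was taken at an age of 30 weeks. Per the study, diabetic and non-diabetic animals were pooled in its treatment groups, and the sample labels do not give the status of single mice. Each mouse gave 1 library, from whole prostate tissue per the series' design text, which does not say how the lobes were handled, and each mouse is referred to by its treatment and the number in its label.

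Between 13760669 and 25178942 reads were counted per mouse. The 8 luminal epithelial markers passed the filter on low counts, and their mean log2(CPM + 1), where CPM is the count scaled to library size with TMM factors, lay between 8.08 and 8.76 in all 8 mice. Secretory genes differed far more between libraries: the 4 ventral lobe genes summed to between 2040 and 271000 CPM, and the 2 genes of dorsolateral and anterior lobe secretion to between 1460 and 16500 CPM. Etanercept 17 held 97200 CPM of 8 seminal vesicle genes and control 69 held 4000 CPM, against at most 668 CPM in the other mice. Whole-tissue RNA cannot tell fewer cells of a type from less RNA per cell.

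The 3 Tcaf genes lie side by side on the minus strand of chromosome 6 in GRCm38, the mm10 build of the submitters' processing notes. Tcaf3 spans chr6:42584866-42597692, Tcaf2 chr6:42623016-42645254 and Tcaf1 chr6:42668002-42710088. The gaps are 25323 bp between Tcaf3 and Tcaf2 and 22747 bp between Tcaf2 and Tcaf1, so that the cluster covers 125223 bp. Trpm8 lies apart from them on the plus strand at chr1:88277661-88389293. The proteins encoded by the Tcaf transcripts have similar lengths of 922 (Tcaf1), 919 (Tcaf2) and 914 (Tcaf3) residues. Over the aligned residues Tcaf1 and Tcaf2 were 60.4% identical, Tcaf2 and Tcaf3 57.8%, and Tcaf1 and Tcaf3 49.8%.

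Because the genes are relatives, the RNA sequences were compared to see how far reads of one could be counted for another. The longest run of bases shared by Tcaf2 and Tcaf3 was 71 bases, which is shorter than a read of 150 nt, while Tcaf1 shared at most 29 bases with Tcaf2 and 20 with Tcaf3. The 71 bases lie in coding sequence, in exon 2 of Tcaf2 (chr6:42642697-42642767, minus strand) and exon 1 of Tcaf3 (chr6:42596882-42596952, minus strand). They are shown with the aligned window of Tcaf1 (chr6:42686553-42686623, minus strand, exon 2), read 5′ to 3′ from the GENCODE M21 transcripts of GRCm38, in which capitals mark the 23 bases unlike the other genes.
Tcaf2: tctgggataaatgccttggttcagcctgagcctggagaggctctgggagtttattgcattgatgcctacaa
Tcaf3: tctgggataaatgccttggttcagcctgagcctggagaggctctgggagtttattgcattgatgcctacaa
Tcaf1: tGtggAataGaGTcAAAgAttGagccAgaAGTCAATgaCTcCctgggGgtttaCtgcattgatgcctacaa
Of all runs of 50 bases, 0.495% of those in Tcaf2 and 0.719% of those in Tcaf3 also occurred in the other gene, and Tcaf1 had none in common with any other gene.

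Trpm8 was at 0 counts in each of the 4 control and each of the 4 etanercept-treated mice. With 3 counts of the total as the smallest detectable amount, this allows a share of up to 1.19e-05% of the reads in control 1, the deepest library, and up to 2.18e-05% in control 65, the shallowest. These limits cover counting error only. Trpm8 was thus not detectable in whole tissue at this depth, and no fold change, correlation or likeness to other genes could be computed for it. An antisense gene, 4930453O03Rik, overlaps 388 exonic bases of Trpm8, or 8.2% of its exons, and was also at 0 in every mouse.

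Genes around Trpm8 were not all silent. Hjurp, which encodes the chaperone of the centromeric histone CENP-A and lies just upstream of Trpm8, had between 101 and 288 counts per mouse, with 14.1 ± 3.44 CPM (SD, n = 4) in controls and 9.68 ± 2.73 CPM (SD, n = 4) with etanercept. Spp2, which encodes a secreted phosphoprotein and lies on the other side, was at 0 in all 8 mice. The protein-coding genes next to the Tcaf cluster, the olfactory receptor genes Olfr455 and Olfr453, were at 0 in all 8 mice as well. Non-coding genes around the cluster were not examined.

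Markers of peripheral sensory neurons, the cells in which TRPM8 is best known, were uneven. Of 6 markers, Scn10a, which encodes a sodium channel of pain-sensing neurons, was at 0 in every mouse, and Trpv1, the heat and capsaicin channel gene, had 15 counts in all. The summed level of the 6 genes was 0 in control 69, 24.7 CPM in control 3, 127 CPM in control 65 and 543 CPM in control 1, and between 106 and 178 CPM with etanercept. Most of it came from Prph, the gene of the neuronal filament protein peripherin, with 23650 counts, which is named here after its values were seen, as is Trpv1.

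Tcaf1 was the steadiest of the 3 Tcaf genes. In the control mice 1, 3, 65 and 69 it had 1211, 379, 481 and 547 counts, or 43.8, 25.3, 33.9 and 31.7 CPM. In the etanercept-treated mice 17, 19, 50 and 52 it had 404, 587, 562 and 629 counts, or 23.5, 31.4, 33.6 and 43.6 CPM. The groups overlapped over nearly their whole range, with means of 33.7 ± 7.68 CPM (SD, n = 4) in controls and 33.0 ± 8.26 CPM (SD, n = 4) with etanercept. The fitted log2 fold change was -0.03 with a standard error of 0.24. Without control 1, the mouse with the highest count, it was 0.11, and without etanercept 52 it was -0.20.

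Tcaf2 was on average higher with etanercept, but the groups overlapped. The control mice 1, 3, 65 and 69 had 1213, 1147, 909 and 1460 counts of Tcaf2, or 43.9, 76.5, 64.0 and 84.5 CPM. The etanercept-treated mice 17, 19, 50 and 52 had 2345, 2700, 1201 and 2904 counts, or 136.6, 144.4, 71.8 and 201.2 CPM. Etanercept 50 lay below control 3 and control 69, and the other 3 treated mice lay above every control. The means were 67.2 ± 17.7 CPM (SD, n = 4) and 139 ± 53.0 CPM (SD, n = 4), with a log2 fold change of 1.04 and a standard error of 0.31.

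Tcaf3 was higher in every etanercept-treated mouse than in any control mouse, and much of the size of that difference came from 1 mouse. The control mice 1, 3, 65 and 69 had 299, 148, 270 and 288 counts of Tcaf3, or 10.8, 9.87, 19 and 16.7 CPM. The etanercept-treated mice 17, 19, 50 and 52 had 809, 1358, 680 and 5713 counts, or 47.1, 72.6, 40.7 and 395.9 CPM. Etanercept 52 thus stood far above the other 3 treated mice, which lay between 40.7 and 72.6 CPM.

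The means of Tcaf3 were 14.1 ± 4.45 CPM (SD, n = 4) in controls and 139 ± 172 CPM (SD, n = 4) with etanercept, so the SD of the treated group exceeded its mean. The medians, which depend less on the 1 high mouse, were 13.7 and 59.9 CPM. The log2 fold change of Tcaf3 was 3.30 with a standard error of 0.75, and without etanercept 52 it fell to 1.92 with a standard error of 0.31. Without control 69 and etanercept 17, the mice with most seminal vesicle RNA, it was 3.68 for Tcaf3, 1.18 for Tcaf2 and 0.08 for Tcaf1.

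**Figure D1:**
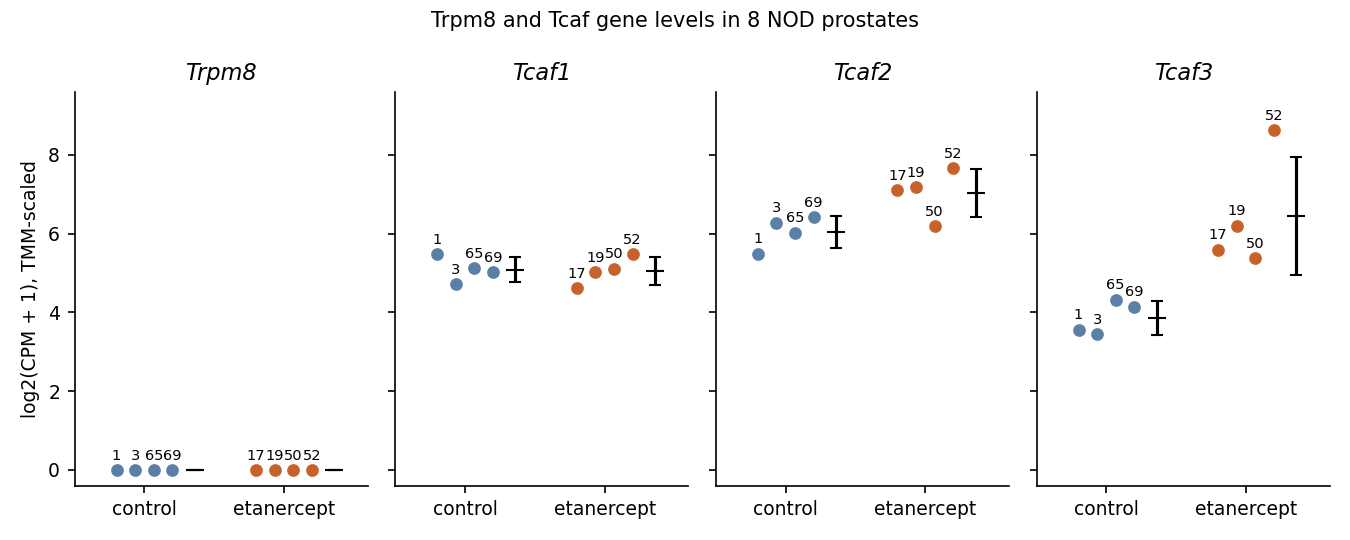
Level of each gene in each mouse as log2(CPM + 1) after TMM scaling, with control mice in blue, etanercept-treated mice in orange, animal numbers beside the points, and the mean ± SD of 4 mice as a bar. Trpm8 lies at 0 in all 8 mice, Tcaf1 overlaps fully between the groups, Tcaf2 overlaps through etanercept 50, and Tcaf3 is separate with etanercept 52 far above the rest.

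In these values the choice of the genes is already contained. By edgeR's quasi-likelihood test 0 of the 3 tested Tcaf genes passed an adjusted p of 0.05, against 0.0% of the 15472 genes tested. By DESeq2, the test of the study's methods, Tcaf3 passed and Tcaf1 and Tcaf2 did not, against 0.113% of the 18664 genes to which it gave an adjusted p. Tcaf3 was singled out by its value in this contrast, so its call adds no support. Groups that did not overlap, with etanercept higher, were found for 1 of the 3 genes and for 2.41% of all tested genes.

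**Figure D2:**
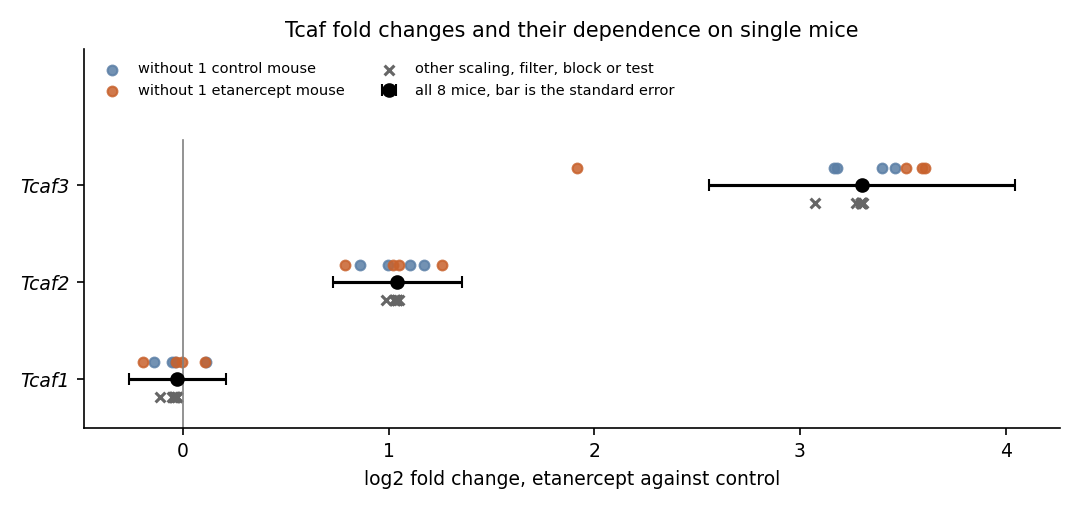
Log2 fold change of each Tcaf gene, etanercept against control, for all 8 mice (black, bar is the standard error), with 1 mouse left out at a time (blue without a control, orange without an etanercept-treated mouse) and with other scalings, filters, a block or DESeq2 (crosses). Values for Tcaf1 lie on both sides of 0, those for Tcaf2 stay between 0.79 and 1.26, and of the fits plotted, the value for Tcaf3 drops from 3.30 to 1.92 without etanercept 52.

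The spread between mice of one group also differed among the genes. The biological coefficient of variation that edgeR estimates after the group means are taken out was 0.28 for Tcaf1, 0.34 for Tcaf2 and 0.66 for Tcaf3, against a median of 0.39 over all tested genes. Tcaf3 was thus more variable than 75.5% of the tested genes, Tcaf2 than 40.9% and Tcaf1 than 27.2%. Within the controls alone the 3 genes were closer, with an SD of 22.8% of the mean for Tcaf1, 26.3% for Tcaf2 and 31.6% for Tcaf3. With etanercept these shares were 25%, 38.3% and 124%.

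To compare levels between the genes, CPM were divided by exon length in kilobases, which gives FPKM. The merged exons of all transcripts were used, 9638 nt for Tcaf1, 4778 nt for Tcaf2 and 3692 nt for Tcaf3, and the levels of Tcaf1 depend on that choice, since the transcript of Tcaf1 whose sequence was compared has 5257 nt. Tcaf2 had a median of 16.8 FPKM over the 8 mice, Tcaf3 8.08 FPKM and Tcaf1 3.39 FPKM, and the median tested gene had 3.48 FPKM. Per length of that 1 transcript of each gene the medians were 17.9 for Tcaf2, 9.61 for Tcaf3 and 6.21 for Tcaf1. In FPKM, Tcaf2 was above Tcaf1 in 8 of 8 mice, by between 2.02-fold in control 1 and 11.7-fold in etanercept 17. Per length of that 1 transcript of each gene it was also above in 8 of 8 mice, but by 1.17-fold in control 1 and 6.79-fold in etanercept 17. The gene whose product is known to suppress TRPM8 was more abundant per length than the one known to favour its opening in every prostate, in tissue in which Trpm8 itself was not detected.

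The order Tcaf2, Tcaf3, Tcaf1 held in 6 of 8 mice in FPKM, and in 3 of 8 per length of 1 transcript, where Tcaf1 was above Tcaf3 in all 4 controls. In FPKM in control 1 Tcaf1 (4.54 FPKM) was above Tcaf3 (2.93 FPKM), and in etanercept 52 Tcaf3 (107 FPKM) was above Tcaf2 (42.1 FPKM). The lower 2 ranks were close in the controls, where the ratio of Tcaf3 to Tcaf1 in FPKM lay between 0.645 and 1.47, so that these neighbours did not differ beyond their spread there. With etanercept that ratio was 5.23, 6.04, 3.16 and 23.7 in mice 17, 19, 50 and 52. The ratio of Tcaf3 to Tcaf2 was 0.319, 0.167, 0.384 and 0.255 in control mice 1, 3, 65 and 69. In etanercept mice 17, 19, 50 and 52 it was 0.446, 0.651, 0.733 and 2.55. The longest run that these 2 genes share, 71 bases, is shorter than a read.

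Summed over the 3 genes, Tcaf RNA came to 21.4 ± 3.62 FPKM (SD, n = 4) in controls and 70.1 ± 56.8 FPKM (SD, n = 4) with etanercept. In the treated mice 17, 19, 50 and 52 the sums were 43.8, 53.1, 29.5 and 154 FPKM, so etanercept 52 carried much of that mean. Tcaf3 made up between 12.5% and 23.3% of this sum in controls and between 29.1% and 69.7% with etanercept. Tcaf2 made up between 55.1% and 75.1% in controls and between 27.4% and 65.3% with etanercept. The share of Tcaf1 lay between 12.3% and 27.3% in controls and between 2.94% and 11.8% with etanercept, although its own FPKM overlapped between the groups. Per length of 1 transcript the share of Tcaf1 lay between 19.2% and 38.6% and between 4.6% and 18.0%.

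**Figure D3:**
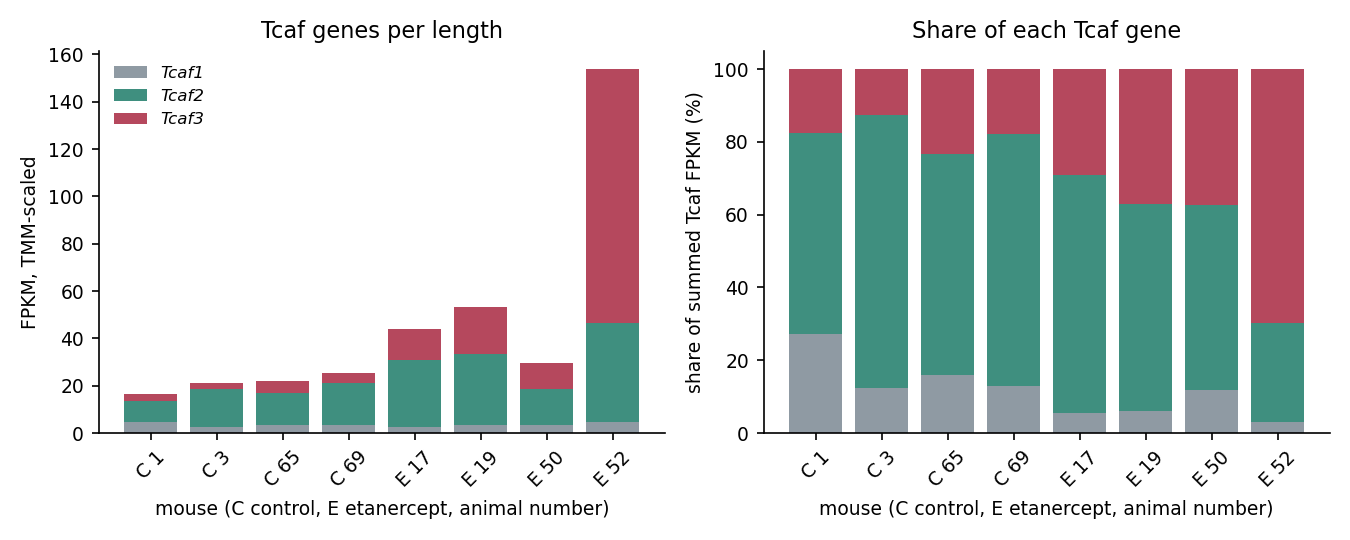
Left, FPKM of the 3 Tcaf genes stacked for each mouse. Right, the share of each gene in that sum in percent. C stands for control and E for etanercept, followed by the animal number. Tcaf2 is the largest share in 7 mice, and Tcaf3, at 69.7%, is the largest in etanercept 52.

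Relations among the 3 genes over the 8 mice were tested on log2(CPM + 1) with the group means removed, since the group difference chose Tcaf3, and none passed. Tcaf2 and Tcaf3 had a Pearson's r of 0.677 (exact two-sided permutation within groups, p = 0.196, adjusted over 3 pairs 0.354) and a Spearman's rho of 0.595 (exact permutation p = 0.16, adjusted 0.479). Tcaf1 and Tcaf3 had r = 0.58 (exact permutation p = 0.236, adjusted 0.354) and rho = 0.405 (exact permutation p = 0.42, adjusted 0.63). Tcaf1 and Tcaf2 had r = -0.142 (exact permutation p = 0.762, adjusted 0.762) and rho = -0.143 (exact permutation p = 0.788, adjusted 0.788). Groups of 4 mice are too small for a correlation of their own.

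With the group difference kept, as a description, r was 0.864 and rho 0.738 for Tcaf2 and Tcaf3, 0.299 and 0.00 for Tcaf1 and Tcaf3, and -0.137 and -0.381 for Tcaf1 and Tcaf2. Without control 1 and etanercept 52, the mice farthest from the median of Tcaf2, r of Tcaf2 and Tcaf3 was 0.715, and without etanercept 52 alone it was 0.779. Without control 1 and etanercept 17, the mice at the ends of the Tcaf1 range, r of Tcaf1 was 0.596 with Tcaf2 and 0.853 with Tcaf3. These values of r over 6 mice are far from those over 8, and no relation of Tcaf1 can be read from them.

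Prostate samples differ in their content of lobes and cell types, and the 3 genes were therefore set beside 11 marker lists, which gave 33 relations. None passed an adjusted exact permutation p of 0.05 for Pearson's r, with or without the group means removed. With the group means removed, Tcaf3 had r = 0.275 with smooth muscle markers (rho 0.095, exact permutation within groups p = 0.491 and 0.826, adjusted 0.927 and 1), and Tcaf2 had r = 0.38 with them (rho 0.214, exact permutation p = 0.337 and 0.622, adjusted 0.927 and 1). Tcaf1 had r = -0.768 with leukocyte markers (rho -0.595, exact permutation p = 0.0295 and 0.125, adjusted 0.927 and 1). With the group difference kept, as a description, these r were 0.691, 0.707 and -0.696. Without the 2 mice farthest from the median of the list they were 0.438, 0.128 and -0.581. These 3 relations had the smallest unadjusted p of the 33 with the group difference kept. With the group means removed, Tcaf3 had r = -0.474 with leukocyte markers (exact permutation within groups p = 0.066, adjusted 0.927). Tcaf1 then had r = -0.611 with skeletal muscle markers (exact permutation within groups p = 0.0868, adjusted 0.927).

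The marker lists had the following levels in the 2 groups, none of them compared by a test of the list. The 5 smooth muscle markers, Acta2 among them, summed to between 3040 and 6210 CPM in controls and between 5550 and 11100 CPM with etanercept, highest in etanercept 52. The 5 adipocyte markers summed to between 23.3 and 313 CPM in controls and between 20.1 and 29.9 CPM with etanercept, and the 8 leukocyte markers to between 113 and 433 CPM and between 101 and 198 CPM. The 4 basal epithelial markers summed to between 163 and 355 CPM in controls and between 119 and 220 CPM with etanercept. The 6 fibroblast markers summed to between 398 and 1040 CPM and between 575 and 1020 CPM, and the 4 skeletal muscle markers to between 67.6 and 1620 CPM and between 686 and 1310 CPM. Scn10a was the only marker of the 11 lists at 0 in every mouse. The lists' part in the Tcaf values was not tested.

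Tgm4, which encodes prostate transglutaminase and belongs to the list of dorsolateral and anterior lobe secretion, is another antigen of experimental autoimmune prostatitis, and is named here after its values were seen. It had 1050, 1310, 3150 and 367 CPM in control mice 1, 3, 65 and 69 and 5580, 2230, 861 and 8440 CPM in etanercept mice 17, 19, 50 and 52. Etanercept 52 was thus the highest mouse for Tgm4 as for Tcaf3, but control 65 was above etanercept 19 and 50 for Tgm4 and below them for Tcaf3. The other gene of the list, Pbsn, which encodes the secreted protein probasin, had means of 5530 ± 4010 CPM (SD, n = 4) in controls and 5130 ± 2980 CPM (SD, n = 4) with etanercept, and was highest in control 1. With the group means removed, the list had r = 0.432 with Tcaf3 (rho 0.405, exact permutation within groups p = 0.358 and 0.316, adjusted 0.927 and 1). With the group difference kept, as a description, r was 0.509, and 0.057 without control 69 and etanercept 52.

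**Figure D4:**
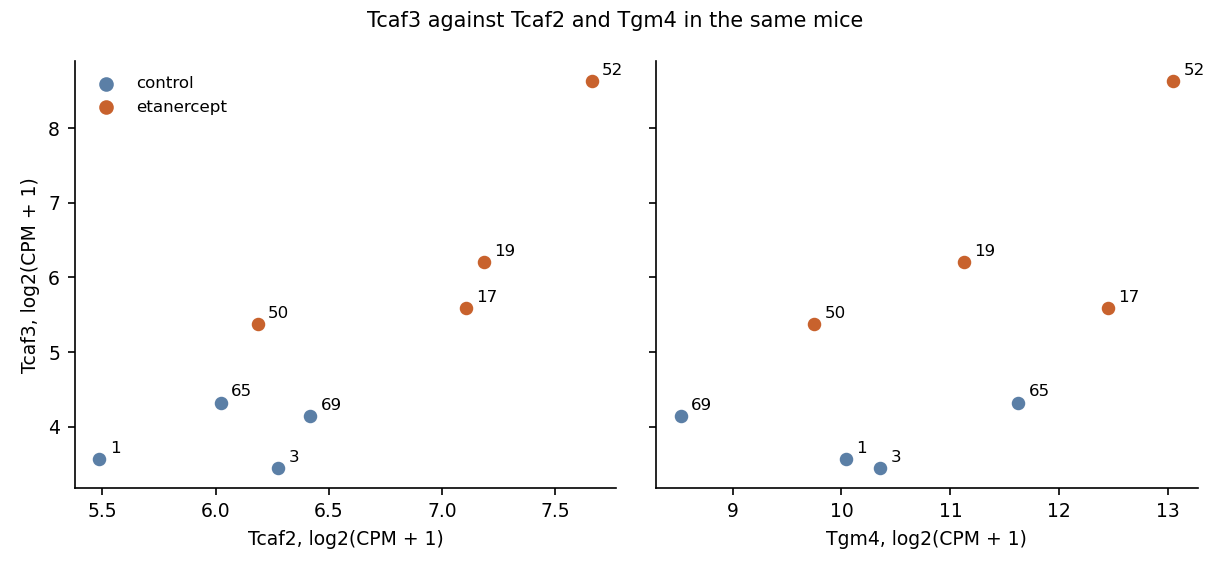
Tcaf3 in each mouse against Tcaf2 (left) and Tgm4 (right), all as log2(CPM + 1), with controls in blue, etanercept-treated mice in orange and animal numbers beside the points. Etanercept 52 is at the top right in both panels, and control 69 is the lowest mouse for Tgm4.

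Among 15469 other tested genes, the pattern most like that of Tcaf3 over the 8 mice was that of Snx1, which encodes a sorting nexin of endosomes, with Pearson's r = 0.975 on log2(CPM + 1). It was followed by the gene Gm13446 (r = 0.974), by Fgd6, which encodes a guanine nucleotide exchange factor (r = 0.957), by Vps37a, a subunit gene of the ESCRT-I complex (r = 0.957), and by Aldh1l2, a mitochondrial folate enzyme gene (r = 0.955). All 5 were highest in etanercept 52, which all of these correlations share. The ranking also contains the difference between the groups, by which Tcaf3 was chosen. With the group means removed r was 0.934 for Snx1, 0.951 for Gm13446, 0.877 for Fgd6, 0.872 for Vps37a and 0.871 for Aldh1l2. Tcaf3 had a 40.1-fold range over the mice. The 5 genes ran from 69.7 to 103 CPM (Snx1), 0.333 to 4.02 CPM (Gm13446), 5.93 to 13.4 CPM (Fgd6), 32.0 to 55.0 CPM (Vps37a) and 1.0 to 10.9 CPM (Aldh1l2). With so many genes ranked over 8 mice these values are a description of likeness only.

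Other channel genes of the TRP family were detected in these prostates. Of 27 other TRP genes, 17 passed the filter on low counts, 3 (Trpc2, Trpc5 and Trpc7) were at 0 in every mouse like Trpm8, and another 6 had between 1 and 20 counts in all. The median over the 8 mice was at least 1 FPKM for 9 of them. Between the groups 0 of the 17 tested genes passed an adjusted p of 0.05 in edgeR or in DESeq2, and their median log2 fold change was 0.13, beside -0.01 over all tested genes. Trpm7, an ion channel with its own kinase domain, had 22.2, 35.7, 24.6 and 44.4 CPM in control mice 1, 3, 65 and 69 and 45.9, 74.8, 74.5 and 45.5 CPM in etanercept mice 17, 19, 50 and 52. These groups did not overlap, which with etanercept higher held for 2.41% of all tested genes. The log2 fold change of 0.92 with a standard error of 0.28 did not pass, with an adjusted p of 0.739 in edgeR and 0.311 in DESeq2.

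The next 2 TRP genes by p, Trpc6 and the lysosomal channel gene Mcoln3, overlapped between the groups. Trpc6, a receptor-operated calcium channel gene, had 2.87 ± 2.13 CPM (SD, n = 4) in controls and 0.967 ± 1.08 CPM (SD, n = 4) with etanercept. Mcoln3 had 6.76 ± 3.27 CPM (SD, n = 4) and 12.2 ± 10.8 CPM (SD, n = 4). Their adjusted p in edgeR was 0.854 and 0.859.

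**Figure D5:**
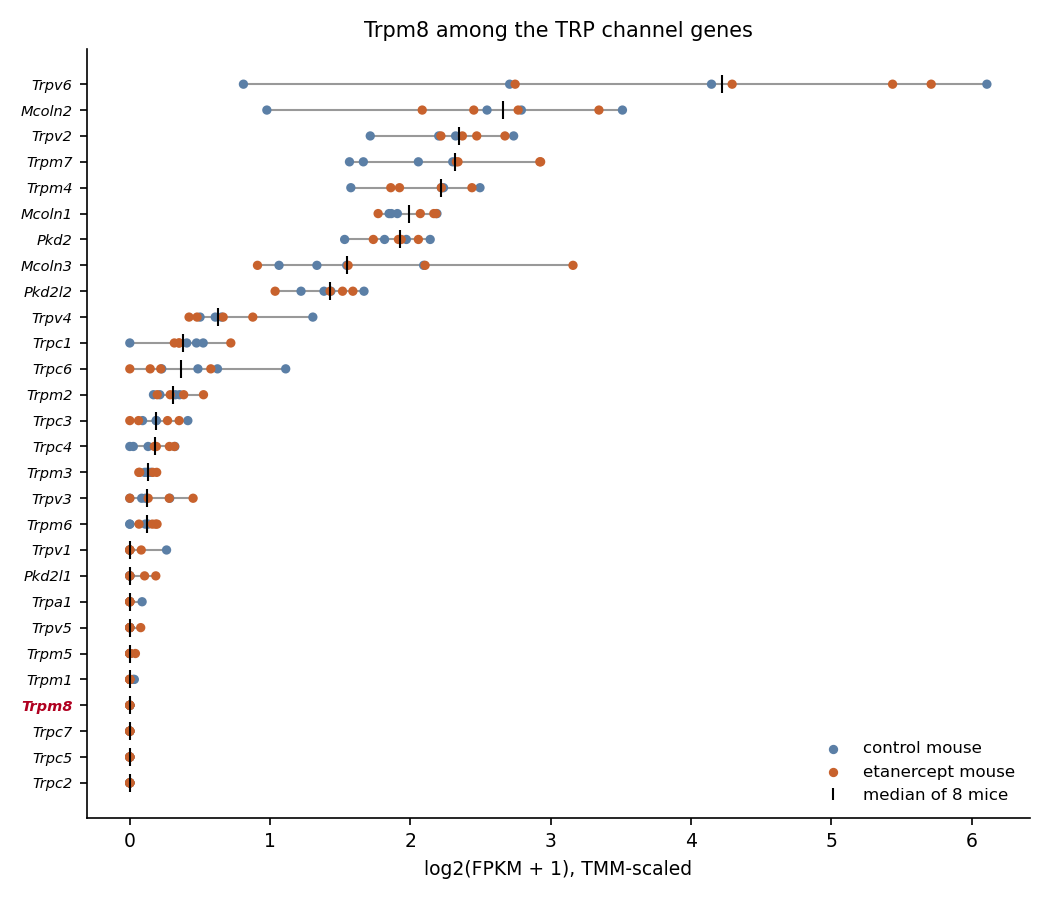
Levels of Trpm8 (red label) and 27 other TRP channel genes as log2(FPKM + 1), with a point for each of 8 mice (blue control, orange etanercept), a grey line from the lowest to the highest mouse and a black tick at the median. Trpm8 lies with Trpc2, Trpc5 and Trpc7 at 0, and Trpv6 has the highest median, 17.7 FPKM, with the widest range.

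The genes of PIP2 synthesis, Gq proteins and phospholipase C, which set how far TRPM8 can open, were all expressed: 20 of 20 passed the filter. None of them passed an adjusted p of 0.05 in edgeR (0.0% over all genes), and DESeq2 called 1 (0.113% over all genes), Plcb4, which encodes a phospholipase C activated by Gq. Plcb4 had 57.9, 51.4, 45.7 and 43.4 CPM in control mice 1, 3, 65 and 69. In etanercept mice 17, 19, 50 and 52 it had 127, 80, 82.5 and 119 CPM. The groups of Plcb4 did not overlap, which with etanercept higher held for 2.41% of all tested genes. Its log2 fold change was 1.04 with a standard error of 0.20, and the adjusted p was 0.739 in edgeR, 0.0276 in DESeq2 and 0.366 in DESeq2 without etanercept 52. Over the other edgeR fits the adjusted p of Plcb4 ranged from 0.162 to 0.999.

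Pi4k2b, a phosphatidylinositol kinase gene at the first step towards PIP2, had 36.6 ± 5.37 CPM (SD, n = 4) in controls and 52.9 ± 7.67 CPM (SD, n = 4) with etanercept. Pip5k1b, a kinase gene of the last step, had 8.34 ± 1.51 CPM (SD, n = 4) and 12.8 ± 2.01 CPM (SD, n = 4). In both genes every treated mouse was above every control, which held for 2.41% of all tested genes. Both were named for their small p in this same contrast. For Pi4k2b the nearest mice were etanercept 19 with 44.5 CPM and control 69 with 44.4 CPM. The adjusted p in edgeR was 0.739 for Pi4k2b and 0.743 for Pip5k1b. The median log2 fold change of the 20 genes was 0.03.

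Of 11 other reported modulators and partners of TRPM8, 11 passed the filter and 0 passed an adjusted p of 0.05 in edgeR or DESeq2, with a median log2 fold change of 0.14. Among the 3 genes with the smallest p were Cav1, which encodes the membrane protein caveolin-1, and Calm2, which encodes the calcium sensor calmodulin. Cav1 had 294 ± 87.0 CPM (SD, n = 4) in controls and 462 ± 145 CPM (SD, n = 4) with etanercept. Calm2 had 324 ± 61.0 CPM (SD, n = 4) and 413 ± 74.7 CPM (SD, n = 4). Both overlapped between the groups, with adjusted p of 0.743 and 0.802 in edgeR.

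Over the 3 lists, 48 of 58 genes were tested and 0 were called by edgeR. At an unadjusted p under 0.05 in edgeR, 4 genes (8.33% of 48) were higher with etanercept and 0 were lower, against 2.99% higher and 3.63% lower over all tested genes. The 4 genes were Trpm7, Plcb4, Pi4k2b and Pip5k1b.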

How the data were processed

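Poly(A)-selected RNA of prostate tissue from 8 mice was sequenced as paired reads of 150 nt. The submitters' processing notes name fastp, STAR 2.6.1d, featureCounts 1.5.0-p3, DESeq2 1.26.0 and the build mm10, with no role or order given. The authors deposited whole-number read counts per gene and mouse, without normalization, for 54532 identifiers. Of these, 37, with 0.00429% of the counts, were not in GENCODE M21. The deposited columns were matched to mice by group and animal number.

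For the fit, TMM factors (0.917 to 1.10) were computed in edgeR 4.0.16 under R 4.3.3, filterByExpr was run at a minimum of 10 counts, and quasi-likelihood p-values were adjusted by Benjamini-Hochberg over 15472 genes. The standard error is the absolute log2 fold change divided by the square root of F. DESeq2 1.42.0 was an alternative. The code was tested on simulated data. CPM use the TMM-scaled counts of tested genes, FPKM the merged exon length of GENCODE M21, and correlations log2(CPM + 1). Exact tests used the 40320 pairings of 8 mice, or those within groups where group means were removed.

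The 4 genes, the lists and the rules were chosen with earlier results of these data known. Named genes are the 4 genes, their nearest protein-coding neighbours, the 3 genes per pathway list with the smallest p, and the 5 genes most like Tcaf3, and 1 gene of a pathway list that the rule names is not reported here. Markers are otherwise given as lists. The ranking for Trpm8, its fold change and its 3 gene pairs were not computable at 0 counts, so pairs were adjusted over 3 in place of 6. Alternatives were other scalings, filters, a robust fit, a block by animal number (below 20 or above 49), pseudocounts of 0.1 in place of 1 and leaving out each mouse. Fits without control 69 and etanercept 17, DESeq2 without etanercept 52, and levels per length of the compared transcript of each gene, were chosen after seeing the data.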

Additional observations from a re-analysis of the deposited data

Results flagged for a closer look

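In a group of 4, a mouse stood apart where its gap to the nearest mouse, divided by the range, exceeded Dixon's critical value at 95%, and 70 groups of values were looked at. Genes and ratios were scored unlogged, and marker lists as mean log2(CPM + 1). For normally distributed values chance gives such a gap in about 1 group in 20, and 6 were found. For Tcaf3, etanercept 52 had 396 CPM against 72.6 CPM in the next treated mouse, a gap of 0.91 of the range. The same mouse stood apart in the ratio of Tcaf3 to Tcaf1 in FPKM, at 23.7 against 6.04, and of Tcaf3 to Tcaf2, at 2.55 against 0.733. As log2(CPM + 1), Tcaf3 was 8.63 in this mouse, 6.20 in etanercept 19 and 5.38 in etanercept 50. That gap does not exceed the critical value, and neither do the gaps of these ratios on a log2 scale. Vps37a, one of the genes most like Tcaf3, had 55.0 CPM in etanercept 52, with 41.7 CPM in the nearest treated mouse. Etanercept 17 was low in the level of ventral lobe genes, at 8.0 on the log2 scale against 12.8 in the nearest treated mouse, and high in Calm2, at 525 CPM against 384 CPM. The ratios and Vps37a share the mouse with Tcaf3 and are not separate cases.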

How the results depend on the processing

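The fold change of Tcaf3 was moved by more than its standard error of 0.75 by 1 mouse. With each mouse left out it ranged from 1.92 to 3.61, lowest without etanercept 52. In DESeq2 without that mouse it was 1.91. The fold changes of Tcaf2 (0.79 to 1.26) and Tcaf1 (-0.20 to 0.11) moved by less than their standard errors of 0.31 and 0.24. DESeq2 called 21 genes, 1 of them among the TRPM8 pathway genes, and 9 genes without etanercept 52, where edgeR called 0 in every fit (1024 at an unadjusted p under 0.05). The cause was not tested. Per length of 1 transcript in place of merged exons, the order Tcaf2, Tcaf3, Tcaf1 held in 3 mice in place of 6, and the lowest ratio of Tcaf2 to Tcaf1 was 1.17 in place of 2.02. The count of correlated pairs, which contains the group difference of Tcaf3, was 1, ranged from 0 to 1 with each mouse left out, and was 0 with the group means removed. No relation to marker lists was called under any alternative run for them. No paired analysis was possible because the groups share no animal number. For Trpm8, depth limits the statement to non-detection, and the labels name no batch.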

Other observations

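Trpv6, which encodes an epithelial calcium channel, was the most abundant TRP channel gene by median FPKM and was chosen here after its values were seen. It had 2.97, 65.7, 21.8 and 268 CPM in control mice 1, 3, 65 and 69 and 22.5, 167, 202 and 73.3 CPM in etanercept mice 17, 19, 50 and 52. The 3 highest mice, control 69, etanercept 50 and etanercept 19, were also the 3 with the highest summed ventral lobe genes (271000, 215000 and 210000 CPM), and control 1, the lowest for Trpv6, had 2040 CPM of them. Etanercept 17 had the same sum of 2040 CPM but more Trpv6 than control 1, at 22.5 CPM beside 21.8 CPM in control 65, whose sum was 19700 CPM.

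Pirt, which encodes a membrane protein known from sensory neurons that binds TRP channels, was likewise chosen after its values were seen. It had 57.2, 9.0, 20.6 and 11.9 CPM in control mice 1, 3, 65 and 69 and 19.2, 26.5, 21.1 and 41.9 CPM in etanercept mice 17, 19, 50 and 52. Control 1 was highest for Pirt, for the summed sensory neuron markers and, by a small margin over etanercept 52, for Tcaf1. Over the 8 mice no relation of Tcaf1 to the sensory neuron list was called. With the group means removed r was 0.385 (exact permutation within groups p = 0.365, adjusted over 33 relations 0.927).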
